A study of Homo sapiens with 18 samples.

Results

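The 6 libraries described here are those of parental THP1 cells at the higher and the lower of the study's doxycycline doses: 3 plates at 10 ug/ml set against 3 plates at 1 ug/ml, out of 18 libraries in all. They were chosen by their labels, and a gene was tested if 3 or more of the 18 libraries gave it 1 FPKM or more, which left 17555. FPKM counts sequenced fragments relative to transcript length and to the depth of the library.

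THP1 is a monocytic cell line from a human acute myeloid leukaemia, labelled as carrying a heterozygous NRAS G12D mutation. The other line, B11, is 1 clone of THP1 that also carries a doxycycline-inducible, CRISPR-resistant NRAS with a G12V change and GFP, and then Cas9, a puromycin resistance gene and paired guides on either side of the NRAS start codon. None of these additions is listed for parental THP1. Each line was spread over 9 plates, 3 each at 0, 1 and 10 ug/ml doxycycline for 5 days in RPMI medium with fetal bovine serum, and total RNA was sequenced. Plates of a line came from the same culture, so p-values here measure the spread between plates. In bulk RNA, fewer cells of a type and less RNA per cell cannot be told apart.

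Doxycycline is a tetracycline antibiotic used to switch inducible constructs, and it also inhibits the ribosome of mitochondria. Cholesterol is made from acetyl-CoA by a chain of enzymes whose genes are switched on together by the transcription factor SREBP2 when sterols are scarce, and SREBP2 is held back by INSIG proteins when they are not. ATF4 is a transcription factor made in larger amounts when cells lack amino acids or carry damaged proteins, and its targets include genes of serine synthesis, amino acid transport and asparagine synthesis.

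Members of 2 gene groups are shown here by the DNA around their start sites, because the differences of their members between the doses leaned to opposite signs. The first set shows cholesterol genes, with the letters CCAAT or their reverse complement ATTGG, the core of the site bound by the factor NF-Y, in capitals. Sequences are RefSeq, build GRCh38.p14, from 250 bases before to 50 bases after the start, written 5′ to 3′ on the gene's strand: HMGCS1 at chr5:43313363-43313662 (minus strand, 2 matches), INSIG1 at chr7:155297628-155297927 (plus strand, 1 match), FDPS at chr1:155308616-155308915 (plus strand, 3 matches) and MVD at chr16:88663042-88663341 (minus strand, 3 matches). A second listed start of HMGCS1, at chr5:43313132-43313431, had 0 matches and is not shown.
HMGCS1: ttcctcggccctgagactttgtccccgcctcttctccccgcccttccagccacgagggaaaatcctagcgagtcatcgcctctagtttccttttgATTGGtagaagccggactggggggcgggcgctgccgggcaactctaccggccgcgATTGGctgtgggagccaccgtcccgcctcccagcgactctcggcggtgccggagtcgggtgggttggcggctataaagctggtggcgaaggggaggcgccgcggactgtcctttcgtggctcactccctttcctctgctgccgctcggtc
INSIG1: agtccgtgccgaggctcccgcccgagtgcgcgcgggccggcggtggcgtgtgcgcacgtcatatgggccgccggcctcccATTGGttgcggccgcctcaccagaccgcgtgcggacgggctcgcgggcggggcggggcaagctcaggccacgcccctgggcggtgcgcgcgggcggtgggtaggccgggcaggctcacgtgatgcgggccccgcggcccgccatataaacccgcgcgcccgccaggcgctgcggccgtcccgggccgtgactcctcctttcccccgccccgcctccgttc
FDPS: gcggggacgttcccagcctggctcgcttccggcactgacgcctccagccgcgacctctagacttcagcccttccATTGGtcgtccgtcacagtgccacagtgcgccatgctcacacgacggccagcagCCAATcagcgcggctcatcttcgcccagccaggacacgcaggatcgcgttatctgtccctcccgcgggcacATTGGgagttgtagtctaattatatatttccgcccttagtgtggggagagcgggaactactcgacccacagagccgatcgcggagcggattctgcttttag
MVD: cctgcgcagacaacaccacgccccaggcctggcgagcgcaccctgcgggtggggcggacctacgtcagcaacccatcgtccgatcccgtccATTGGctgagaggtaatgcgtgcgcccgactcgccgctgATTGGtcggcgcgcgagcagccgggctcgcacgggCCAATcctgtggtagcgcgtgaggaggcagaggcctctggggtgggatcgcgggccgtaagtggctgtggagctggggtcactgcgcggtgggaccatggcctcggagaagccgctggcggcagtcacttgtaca

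CCAAT was searched on both strands and was present in 18 of 23 promoters (78.3%) of 18 cholesterol genes with a RefSeq entry, in 22 of 49 promoters (44.9%) of 31 matched ATF4 list genes, and in 12155 of all 35116 promoters (34.6%). The letters TCACNCCAC, a form of the sterol regulatory element, were in 1 of the 23 cholesterol promoters (4.35%), that of SREBF2, in 0 of the 49 ATF4 list promoters and in 396 of all promoters (1.13%). A match describes letters in this window and shows no binding.

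The second set shows genes of the ATF4 list, with TGATGNAA or its reverse complement, the form of the C/EBP-ATF response element that was searched, in capitals. They are ASNS at chr7:97872359-97872658 (minus strand, 1 match) and CHAC1 at chr15:40953221-40953520 (plus strand, 1 match, on the reverse strand). A second listed start of ASNS, at chr7:97872116-97872415, had 0 matches and is not shown.
ASNS: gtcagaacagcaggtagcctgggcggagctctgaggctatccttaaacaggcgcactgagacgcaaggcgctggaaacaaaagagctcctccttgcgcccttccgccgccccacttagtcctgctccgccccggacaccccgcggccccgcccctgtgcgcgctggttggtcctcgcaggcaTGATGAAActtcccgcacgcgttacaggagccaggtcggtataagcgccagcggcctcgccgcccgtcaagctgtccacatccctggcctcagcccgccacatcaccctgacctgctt
CHAC1: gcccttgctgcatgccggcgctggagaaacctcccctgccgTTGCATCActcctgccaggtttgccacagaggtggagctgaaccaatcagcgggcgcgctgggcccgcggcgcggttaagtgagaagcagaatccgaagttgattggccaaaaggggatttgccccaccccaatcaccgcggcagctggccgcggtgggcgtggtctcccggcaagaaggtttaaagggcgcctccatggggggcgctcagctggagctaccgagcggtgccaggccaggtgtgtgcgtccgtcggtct

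TGATGNAA was in 9 of the 49 promoters of the ATF4 list (18.4%), in 0 of the 23 cholesterol promoters and in 1270 of all promoters (3.62%). The list genes with a match were AARS1, ASNS, CEBPG, CHAC1, GARS1, MARS1, SLC1A5, SLC3A2 and SLC7A1. None of these passed between the doses in the fit of all 18 libraries or in that of the THP1 libraries alone, described below. The list members that did pass in those 2 fits were not among the genes with a match. Among the alternatives, ASNS passed in 1, the fit without replicate C at 1 ug/ml. None of the 3 motifs contains another, and each was counted separately; matches that share end letters were not excluded.

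At 10 ug/ml, against 1 ug/ml, THP1 cells had lower RNA of enzymes of cholesterol and unsaturated fatty acid synthesis, of the cytoskeletal genes VIM and TUBA1A, of the calcium-binding protein gene S100A10 and of the monocyte receptor CSF1R. Higher genes were fewer and included SESN2, SOS1, S100P and PDZD8. In limma's test with Benjamini-Hochberg adjustment over all genes, 52 of 17555 passed at 0.05 (0.296%), 9 higher (0.0513%) and 43 lower (0.245%) at 10 ug/ml. The decreases of the 43 ran from -0.22 to -1.68 on the log2(FPKM + 1) scale with a median of -0.73, and the 9 increases from 0.33 to 1.96. Differences on this scale understate the change of genes with low FPKM. The lowest 10 genes fell by at least 1 on this scale, and 4 genes rose by at least 1.

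All 52 genes had the 3 libraries of one dose above the 3 of the other, which was also the case for 932 of all genes in the higher direction (5.31%) and 1414 in the lower (8.05%). Of the 52, 46 were protein-coding. Over all genes the median difference was -0.01, with 52.6% of genes below 0 and a median SE of 0.20. At an unadjusted p under 0.05 there were 1689 genes (9.62%). Of 63 genes that differed by at least 3 on the log2 scale, 0 passed, and 37 had under 300 exonic bases.

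The count depended on each library. It was 20, 16 and 13 genes without replicate A, B or C at 10 ug/ml, and 17, 15 and 21 without replicate A, B or C at 1 ug/ml. The genes S100A10, VIM, TUBA1A, FDPS, INSIG1, FADS2, ECM1, LINC03040 and HSPA7, 9 in all, passed in every one of these 6 fits, 43 lost their call in at least 1 and 26 in all 6. No gene of the 52 changed direction in these fits.

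**Figure D1:**
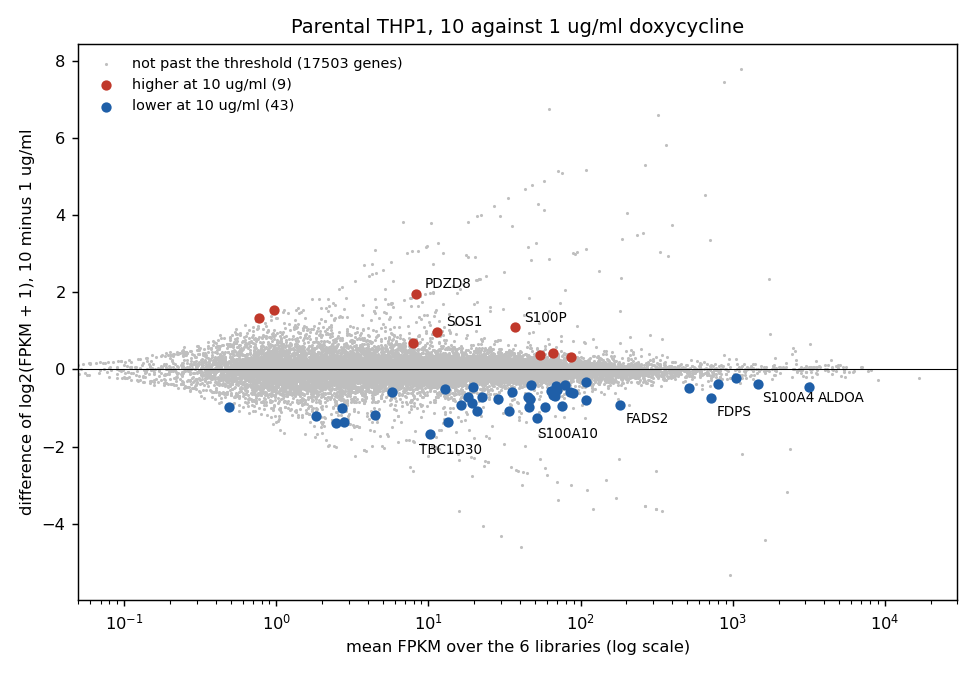
Difference of log2(FPKM + 1), 10 minus 1 ug/ml, of 17555 genes in parental THP1 against their mean FPKM over the 6 libraries on a log axis. The 9 higher (red) and 43 lower (blue) genes past the threshold lie between 1.96 and -1.68, while genes with larger differences, in grey, did not pass.

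NRAS, the gene that the study altered in B11, had 23.7, 24.5 and 24.6 FPKM at 10 ug/ml and 23.2, 21.5 and 25.5 FPKM at 1 ug/ml in parental THP1, a log2 difference of 0.05 (SE 0.07, limma adjusted p = 0.885). The 2 doses overlapped. The monocytic and myeloid identity of the cells was visible in both doses. LYZ, the lysozyme of myeloid cells, had 669.9, 738 and 570.5 FPKM at 10 ug/ml and 758, 803 and 752 FPKM at 1 ug/ml. SPI1, the myeloid transcription factor PU.1, had 217, 198 and 212 FPKM at 10 ug/ml and 239, 266 and 217 FPKM at 1 ug/ml. CD14, the monocyte co-receptor for lipopolysaccharide, was low, at 7.58, 8.64 and 5.75 FPKM at 10 ug/ml and 9.72, 7.54 and 9.25 FPKM at 1 ug/ml, and CD163, FCN1, FCGR3A and MRC1 were too low to be tested. Replicate libraries correlated across genes at Pearson r of 0.940 to 0.954 on the log scale, and libraries of different dose at 0.939 to 0.950. Mitochondrially encoded genes took 3.36 to 4.26% of the FPKM sum at 10 ug/ml and 3.58 to 3.89% at 1 ug/ml.

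Of the 31 lists, cholesterol synthesis had the most members past the threshold. All 24 tested members of a 25-gene list (the remaining 1 was too low to be tested) had differences below 0 (against 52.6% of all genes), with a median of -0.62. Of these, 9 passed, all lower (against 0.245% of all genes). In 22 the 3 libraries at 10 ug/ml lay below the 3 at 1 ug/ml (against 8.05% of all genes). The list's summed level was 1847 to 2098 FPKM at 10 ug/ml and 2971 to 3149 FPKM at 1 ug/ml.

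The chain starts with enzymes that join acetyl-CoA units. ACAT2, the thiolase that makes acetoacetyl-CoA, had 58.7, 50.6 and 46.7 FPKM at 10 ug/ml and 81.9, 91.0 and 79.4 FPKM at 1 ug/ml. It fell by 0.69 on the log2 scale (SE 0.12, limma adjusted p = 0.0337), and no library at 10 ug/ml reached the lowest at 1 ug/ml. HMGCS1, the synthase of HMG-CoA (chr5:43289395-43313512, GRCh38, minus strand), had 33.4, 49.2 and 35.4 FPKM at 10 ug/ml and 81.3, 79.9 and 69.5 FPKM at 1 ug/ml. It fell by 0.97 (SE 0.15, adjusted p = 0.0226), with replicate B the highest of the 10 ug/ml plates. With any one of the 6 libraries left out, the limma adjusted p was 0.0384 to 0.135 for ACAT2 and 0.00684 to 0.0943 for HMGCS1.

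Of the 4 enzymes that turn mevalonate into isoprenoid units, 3 fell. MVK, mevalonate kinase (chr12:109573255-109598117, plus strand), had 13.2, 13.97 and 11.95 FPKM at 10 ug/ml and 30.9, 26.7 and 29.03 FPKM at 1 ug/ml. Its mean at 10 ug/ml was 0.452 times that at 1 ug/ml, and its fall of 1.09 on the log2 scale (SE 0.19, adjusted p = 0.0356) was the largest among members of the list. MVD, the decarboxylase of mevalonate diphosphate, had 52.0, 48.3 and 53.1 FPKM at 10 ug/ml and 102, 103 and 95.6 FPKM at 1 ug/ml, and fell by 0.96 (SE 0.19, adjusted p = 0.0462). PMVK, the kinase between them, showed a difference of -0.12. IDI1, the isomerase that follows MVD, had 26.1, 18.2 and 19.5 FPKM at 10 ug/ml and 34.7, 33.0 and 41.3 FPKM at 1 ug/ml, and fell by 0.76 (SE 0.15, adjusted p = 0.0462). MVK and MVD lost their calls without any one of the 6 libraries, at limma adjusted p of 0.0866 to 0.118 and 0.0993 to 0.156. For IDI1 the left-out range was 0.0365 to 0.158.

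The enzymes that lead from isoprenoid units to squalene and its epoxide fell as well. FDPS, farnesyl diphosphate synthase (chr1:155308748-155320666, plus strand), had 541, 566 and 497 FPKM at 10 ug/ml and 891, 934 and 872 FPKM at 1 ug/ml. It fell by 0.75 (SE 0.09, adjusted p = 0.00425), and the same call was made without any one of the 6 libraries, with adjusted p between 0.00684 and 0.0396. FDFT1, squalene synthase, had 435, 497 and 372 FPKM at 10 ug/ml and 563, 625 and 625 FPKM at 1 ug/ml, and fell by 0.48 (SE 0.09, adjusted p = 0.0402). SQLE, squalene epoxidase, had 64.8, 68.1 and 69.2 FPKM at 10 ug/ml and 98.2, 96.9 and 111 FPKM at 1 ug/ml, and fell by 0.59 (SE 0.10, adjusted p = 0.0337). In all 3 genes the plates of the 2 doses were apart. SQLE lost its call without any one library, at limma adjusted p of 0.0769 to 0.0986. For FDFT1 the left-out range was 0.00908 to 0.141.

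Of the later enzymes, DHCR7, LSS and MSMO1 had every plate at 10 ug/ml below every plate at 1 ug/ml without passing, while TM7SF2, a sterol reductase, had overlapping plates (difference -0.48). DHCR7, which makes cholesterol from its last precursor, had 31.005, 28.8 and 34.5 FPKM at 10 ug/ml and 64.0, 58.0 and 50.8 FPKM at 1 ug/ml, a difference of -0.85 (SE 0.18, adjusted p = 0.0616). LSS, lanosterol synthase, had 36.7, 32.3 and 40.7 FPKM at 10 ug/ml and 63.8, 68.3 and 56.7 FPKM at 1 ug/ml, a difference of -0.77 (SE 0.24, adjusted p = 0.253). MSMO1, a methylsterol oxidase, had 26.2, 19.5 and 33.2 FPKM at 10 ug/ml and 40.8, 41.1 and 43.8 FPKM at 1 ug/ml, a difference of -0.68 (SE 0.23, adjusted p = 0.305).

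INSIG1, a sterol sensor that retains SREBP in the endoplasmic reticulum and is itself a target of SREBP2, had 75.3, 90.2 and 75.6 FPKM at 10 ug/ml and 138, 141 and 136 FPKM at 1 ug/ml. It fell by 0.78 (SE 0.11, adjusted p = 0.00692), and held without any one library, at adjusted p of 0.00684 to 0.0489. SREBF2, which encodes SREBP2, showed a difference of -0.25 (adjusted p = 0.153). The number of list members past the threshold was 4, 4 and 2 without replicate A, B or C at 10 ug/ml and 2, 2 and 3 without replicate A, B or C at 1 ug/ml.

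**Figure D2:**
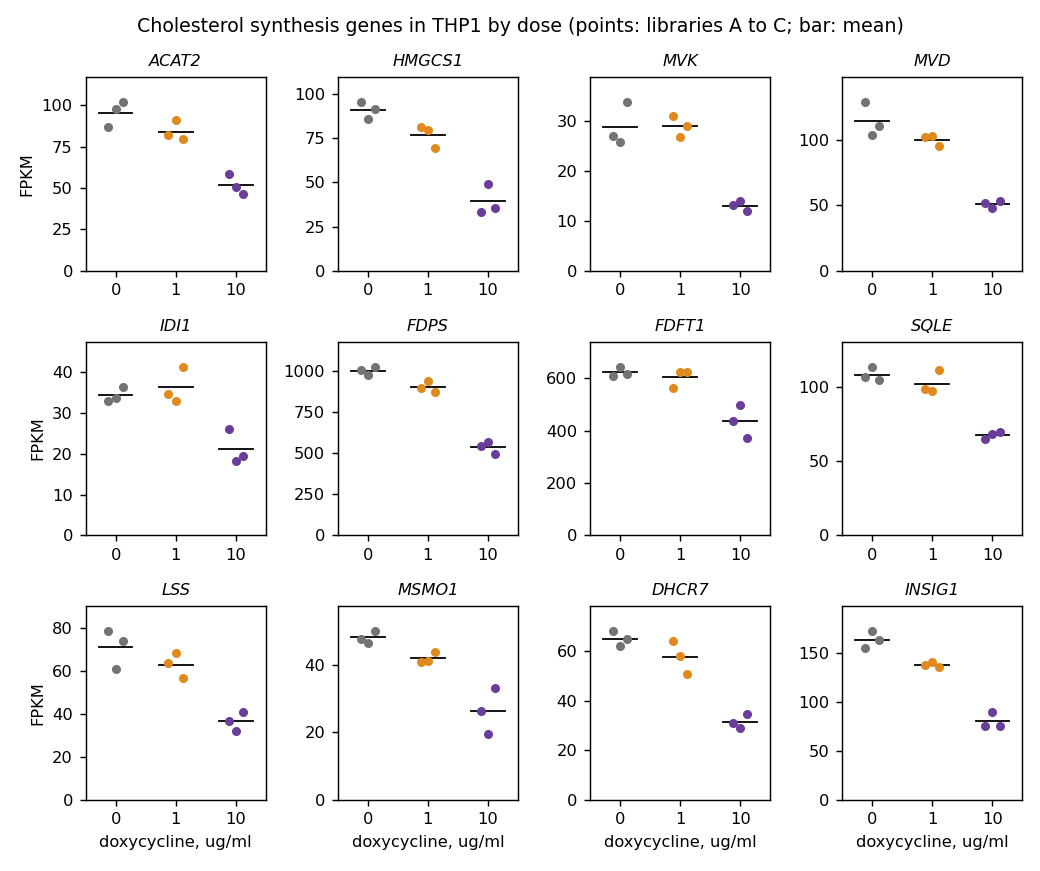
FPKM of 12 genes of cholesterol synthesis and its regulation in the 9 parental THP1 libraries by doxycycline dose, with points for plates A to C and a bar for the mean. In each panel the 3 plates at 10 ug/ml lie below the 3 plates at 1 ug/ml, such as 11.95 to 13.97 FPKM against 26.7 to 30.9 FPKM for MVK.

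Among 15 tested genes of a 16-gene list of fatty acid synthesis and the sterol receptor LXR, 2 passed, both lower (against 0.245% of all genes), and 14 were below 0 (against 52.6% of all genes), with a median of -0.33. FADS2, which desaturates linoleic acid, had 129, 145 and 106 FPKM at 10 ug/ml and 231, 261 and 225 FPKM at 1 ug/ml. It fell by 0.92 (SE 0.11, limma adjusted p = 0.00331), and its plates were apart at the 2 doses. It lies beside FADS1 on chromosome 11, and the strand setting of the libraries is not stated in the labels, so reads where genes overlap cannot be assigned with certainty.

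SCD, which makes oleic acid from stearic acid, had 52.1, 53.2 and 49.4 FPKM at 10 ug/ml and 76.3, 75.4 and 79.8 FPKM at 1 ug/ml. It fell by 0.57 (SE 0.09, adjusted p = 0.0242), and with any one of the 6 libraries left out its difference was -0.60 to -0.54 and its adjusted p 0.0701 to 0.0994, so the call was lost. FASN, the fatty acid synthase, had 164, 148 and 180.5 FPKM at 10 ug/ml and 215, 211 and 199 FPKM at 1 ug/ml, a difference of -0.35 (SE 0.11, adjusted p = 0.241). SREBF1, the SREBP gene most tied to fatty acid synthesis, showed a difference of -0.28 (adjusted p = 0.339).

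The list of ATF4 and the integrated stress response showed the opposite sign. Of 37 tested members (FGF21 was not tested), 34 were above 0, with a median of 0.37, while 52.6% of all genes were below 0. The 3 plates at 10 ug/ml lay above the 3 at 1 ug/ml in 25 members (against 5.31% of all genes). The reverse order held for 1 member (against 8.05% of all genes). In the fit over all 18 libraries 1 member passed (against 0.0513% of all genes). The list's summed level was 3499 to 3761 FPKM at 10 ug/ml and 2672 to 2786 FPKM at 1 ug/ml.

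The member past the threshold was SESN2, a stress-induced inhibitor of mTORC1 that senses leucine. It had 9.53, 10.4 and 9.93 FPKM at 10 ug/ml and 5.93, 5.91 and 5.5 FPKM at 1 ug/ml, a rise of 0.69 (SE 0.13, limma adjusted p = 0.0426), and its plates did not overlap. With any one of the 6 libraries left out its adjusted p was 0.0986 to 0.136.

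Of the 3 enzymes of serine synthesis, PSAT1 and PHGDH had plates apart at the 2 doses but did not pass with all 18 libraries, and PSPH, the phosphatase, had overlapping plates (28.03, 28.9 and 23.7 FPKM at 10 ug/ml and 22.8, 27.5 and 27.0 FPKM at 1 ug/ml, difference 0.06, adjusted p = 0.947). PSAT1, an aminotransferase of serine synthesis, had 139, 129.6 and 124 FPKM at 10 ug/ml and 60.9, 57.9 and 58.9 FPKM at 1 ug/ml. The difference was 1.13, with an SE of 0.45 and an adjusted p of 0.416 when B11 libraries shared the estimate of spread, and an SE of 0.06 and an adjusted p of 0.000766 in a fit of the 9 THP1 libraries alone. Over all alternative settings its adjusted p ran from 0.000766 to 0.602, and it passed in 2 of 17.

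PHGDH, the enzyme that commits a glycolytic intermediate to serine, had 235, 235 and 199 FPKM at 10 ug/ml and 131, 145 and 138 FPKM at 1 ug/ml. Its difference of 0.68 had an adjusted p of 0.788 with all 18 libraries, 0.0133 with the 9 THP1 libraries, and 0.0133 to 0.865 over all alternatives. SLC7A5, a transporter of large neutral amino acids, had 81.7, 78.8 and 72.4 FPKM at 10 ug/ml and 42.8, 43.0 and 46.7 FPKM at 1 ug/ml. Its difference of 0.80 had an adjusted p of 0.512 with all 18 libraries, 0.00754 with the 9 THP1 libraries, and 0.00754 to 0.682 over all alternatives.

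In the fit of the 9 THP1 libraries alone, 6 of the 37 list members passed (16.2%), all higher, against 51 of all genes (0.291%), 13 higher (0.0741%) and 38 lower (0.216%). Besides the 3 genes above they were SHMT2 and MTHFD2, of mitochondrial one-carbon metabolism, and TRIB3, a stress-induced pseudokinase. Their differences were 0.51, 0.48 and 0.55, with adjusted p of 0.0348, 0.0411 and 0.0448 in that fit. Over the alternatives their adjusted p reached 0.532, 0.422 and 0.388. SESN2 did not pass in that fit, so the 2 fits called different members.

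CHAC1, which degrades glutathione, had 14.5, 16.0005 and 12.8 FPKM at 10 ug/ml and 5.05, 6.47 and 6.31 FPKM at 1 ug/ml, a difference of 1.16 (SE 0.54, adjusted p = 0.519). ASNS, asparagine synthetase, had 29.9, 29.4 and 24.9 FPKM at 10 ug/ml and 11.6, 14.7 and 23.9 FPKM at 1 ug/ml, a difference of 0.77 (SE 0.20, adjusted p = 0.168). Replicate C at 1 ug/ml stood near the 10 ug/ml plates for ASNS, whose adjusted p was 0.0345 without that library. CBS, the first enzyme of transsulfuration, had 9.47, 7.14 and 6.99 FPKM at 10 ug/ml and 1.52, 4.11 and 1.38 FPKM at 1 ug/ml, a difference of 1.49 (SE 0.32, adjusted p = 0.0723). ATF4 itself had 383, 405 and 367 FPKM at 10 ug/ml and 298, 301 and 292 FPKM at 1 ug/ml, a difference of 0.37 (adjusted p = 0.538). DDIT4, a member that inhibits mTORC1 under stress and low oxygen, had a difference of -0.42.

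Genes of glycolysis and the response to low oxygen were mostly lower. Of 30 tested members of a 32-gene list, 28 were below 0 (against 52.6% of all genes), with a median of -0.30, and 1 passed, lower (against 0.245% of all genes). In the fit of the 9 THP1 libraries 3 passed, ALDOA, ALDOC and BNIP3, all lower (against 0.216% of all genes). The summed level of the whole list was 7848 to 9023 FPKM at 10 ug/ml and 10424 to 10954 FPKM at 1 ug/ml. The member that passed was ALDOA, the main muscle-type aldolase, with 2754, 2869 and 2399 FPKM at 10 ug/ml and 3577, 3814 and 3647 FPKM at 1 ug/ml, a fall of 0.46 (SE 0.09, limma adjusted p = 0.0462). With any one of the 6 libraries left out its adjusted p was 0.0851 to 0.157.

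ALDOC, the brain-type aldolase, had 8.16, 9.4 and 7.88 FPKM at 10 ug/ml and 30.2, 31.7 and 32.1 FPKM at 1 ug/ml, so its mean at 10 ug/ml was 0.271 times that at 1 ug/ml. Its difference of -1.77 had an SE of 0.40 and an adjusted p of 0.0841 with all 18 libraries, and an SE of 0.08 and an adjusted p of 0.000386 with the 9 THP1 libraries. In B11, ALDOC varied widely between plates at 10 ug/ml, at 105 ± 65.7 FPKM (SD, n = 3). BNIP3, a mitophagy receptor induced by low oxygen, had 15.4, 13.9 and 15.4 FPKM at 10 ug/ml and 31.7, 26.8 and 33.3 FPKM at 1 ug/ml, a difference of -0.99 (adjusted p = 0.232 with 18 libraries and 0.00754 with 9). Over the alternatives the adjusted p of ALDOC ran from 0.000386 to 0.232 and that of BNIP3 from 0.00754 to 0.418. GAPDH, the glycolytic dehydrogenase, had a difference of -0.24 (adjusted p = 0.137).

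Outside these lists, the smallest adjusted p belonged to S100A10, which encodes the p11 partner of annexin A2 (chr1:151982915-151994390, GRCh38, minus strand). It had 31.5, 28.9 and 29.2 FPKM at 10 ug/ml and 70.5, 72.5 and 76.8 FPKM at 1 ug/ml. Its mean at 10 ug/ml was 0.408 times that at 1 ug/ml, a fall of 1.27 on the log2 scale (SE 0.12, limma adjusted p = 0.000383). The call held without any one library, at adjusted p of 0.00133 to 0.00549. Its relative S100A4 was also lower, with 1339, 1338 and 1162 FPKM at 10 ug/ml and 1599, 1683 and 1709.8 FPKM at 1 ug/ml, a fall of 0.38 (adjusted p = 0.0337). The call of S100A4 was lost without any one library, at adjusted p of 0.0556 to 0.13.

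The intermediate filament gene VIM had 23.3, 19.4 and 21.9 FPKM at 10 ug/ml and 47.9, 44.8 and 45.6 FPKM at 1 ug/ml, a fall of 1.07 (SE 0.13, adjusted p = 0.00425). TUBA1A, an alpha tubulin, had 30.5, 32.8 and 28.6 FPKM at 10 ug/ml and 58.2, 65.4 and 59.2 FPKM at 1 ug/ml, a fall of 0.97 (SE 0.13, adjusted p = 0.006). Both passed without any one library. VIM overlaps the antisense gene VIM-AS1 and TUBA1A resembles other alpha tubulin genes, so both values carry an uncertainty in which gene the reads came from. ARPC1B, a subunit of the Arp2/3 actin-nucleating complex, had the smallest of the 43 decreases, with 971, 979.9 and 960.5 FPKM at 10 ug/ml and 1084, 1197 and 1112 FPKM at 1 ug/ml, a fall of 0.22 (SE 0.04, adjusted p = 0.0426). That call was lost without any one library, at limma adjusted p of 0.063 to 0.156.

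The largest decrease was that of TBC1D30, a Rab GTPase-activating protein, with 5.03, 4.23 and 3.85 FPKM at 10 ug/ml and 15.4, 17.2 and 15.9 FPKM at 1 ug/ml. It fell by 1.68 (SE 0.29, adjusted p = 0.0337), though without any one library the adjusted p was 0.0707 to 0.13. The non-coding gene LINC03040 had 6.5, 8.81 and 5.88 FPKM at 10 ug/ml and 19.0, 21.2 and 18.8 FPKM at 1 ug/ml, a fall of 1.37 (SE 0.19, adjusted p = 0.00692). CDKN1A, the p21 inhibitor of cyclin-dependent kinases, had 18.01, 16.6 and 15.96 FPKM at 10 ug/ml and 27.2, 27.6 and 29.7 FPKM at 1 ug/ml, a fall of 0.71 (SE 0.11, adjusted p = 0.0229, and 0.0458 to 0.0943 with any one library left out). It was the 1 member past the threshold among 17 tested p53 targets (against 0.245% of all genes lower), whose median difference was -0.01. BTG2, an antiproliferative immediate early gene, fell by 0.52 (SE 0.09, adjusted p = 0.0356, and 0.0355 to 0.139 with any one library left out). It was the 1 member past the threshold of 14 tested immediate early genes (against 0.245% of all genes lower), whose median was -0.26.

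By chromosome, 14 of the 52 genes lay on chromosome 1 (26.9%), which held 10.2% of the genes tested, and 12 of these were lower. The stretch chr1:150508062-161678654 (GRCh38), set after seeing the values to run from the first to the last of a group of called genes, held 8 of the 52, all lower. It had 230 genes tested (3.48% called), and their median difference was -0.06. They were S100A10, S100A4, FDPS, ECM1, SELENBP1, FCGR2B, FCGR2C and HSPA7. ECM1, an extracellular matrix protein, had 58.2, 59.9 and 53.8 FPKM at 10 ug/ml and 80.7, 87.1 and 82.6 FPKM at 1 ug/ml, a fall of 0.54 (adjusted p = 0.006). FCGR2B, FCGR2C and HSPA7 lie in a duplicated stretch with near-identical copies, so reads may be split between them, and they differed by -1.01, -1.18 and -1.36. SELENBP1, a selenium-binding protein, fell by 1.21 (limma adjusted p = 0.0128, and 0.0104 to 0.0661 with any one library left out).

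The largest increase was that of PDZD8, a lipid-transfer protein of endoplasmic reticulum contact sites (chr10:117277274-117375467, minus strand). It had 15.1, 14.04 and 12.04 FPKM at 10 ug/ml and 3.6, 3.22 and 1.74 FPKM at 1 ug/ml. It rose by 1.96 (SE 0.35, limma adjusted p = 0.0356), its mean at 10 ug/ml being 4.81 times that at 1 ug/ml. PDZD8 overlaps SLC18A2, so its reads may include some of that gene. S100P, a calcium-binding protein, had 54.0, 49.6 and 47.6 FPKM at 10 ug/ml and 28.5, 24.1 and 17.6 FPKM at 1 ug/ml, a rise of 1.10 (SE 0.19, adjusted p = 0.0342).

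SOS1, the exchange factor that loads RAS proteins with GTP, had 15.1, 16.4 and 14.4 FPKM at 10 ug/ml and 6.76, 6.64 and 8.69 FPKM at 1 ug/ml. It rose by 0.97 (SE 0.18, adjusted p = 0.0426), and its 3 plates at 0 ug/ml, with 11.3, 9.7 and 11.2 FPKM, lay between the 2 doses. MLST8, a subunit of both mTOR complexes, had 77.4, 74.2 and 75.0 FPKM at 10 ug/ml and 53.6, 54.7 and 61.0 FPKM at 1 ug/ml, a rise of 0.42 (adjusted p = 0.0462). CENPV, which acts at centromeres, rose by 0.38 (adjusted p = 0.0462) and RNF187, a ubiquitin ligase, by 0.33 (adjusted p = 0.0447). With any one library left out, the adjusted p was 0.0725 to 0.106 for PDZD8, 0.0359 to 0.102 for S100P and 0.0627 to 0.156 for SOS1. In the same fits it was 0.061 to 0.163 for MLST8, 0.0738 to 0.158 for CENPV and 0.0592 to 0.152 for RNF187. KCNG1, CUEDC2, TMEM131L and POLR1F, the next genes by the rule used for naming, had differences of 0.79, 0.44, 0.56 and 0.46 and did not pass (adjusted p = 0.0723, 0.0797, 0.08 and 0.08).

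Calls were also made for 3 genes listed at 0 in every plate of one dose, for which no fold is given. IGKC, an immunoglobulin light chain constant gene, was listed at 0 in the 3 plates at 10 ug/ml and had 0.843, 1.35 and 0.733 FPKM at 1 ug/ml. An unnamed gene, ENSG00000243389, had 2.03, 1.81 and 1.93 FPKM at 10 ug/ml and was listed at 0 in the 3 plates at 1 ug/ml. Another, ENSG00000267274, had 1.41, 1.51 and 1.69 FPKM at 10 ug/ml and was listed at 0 in the 3 plates at 1 ug/ml. With 1 library left out, the limma adjusted p was 0.0355 to 0.0998 for IGKC. The 2 unnamed genes lost their calls in every such fit, at 0.0975 to 0.135 and 0.1 to 0.139.

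**Figure D3:**
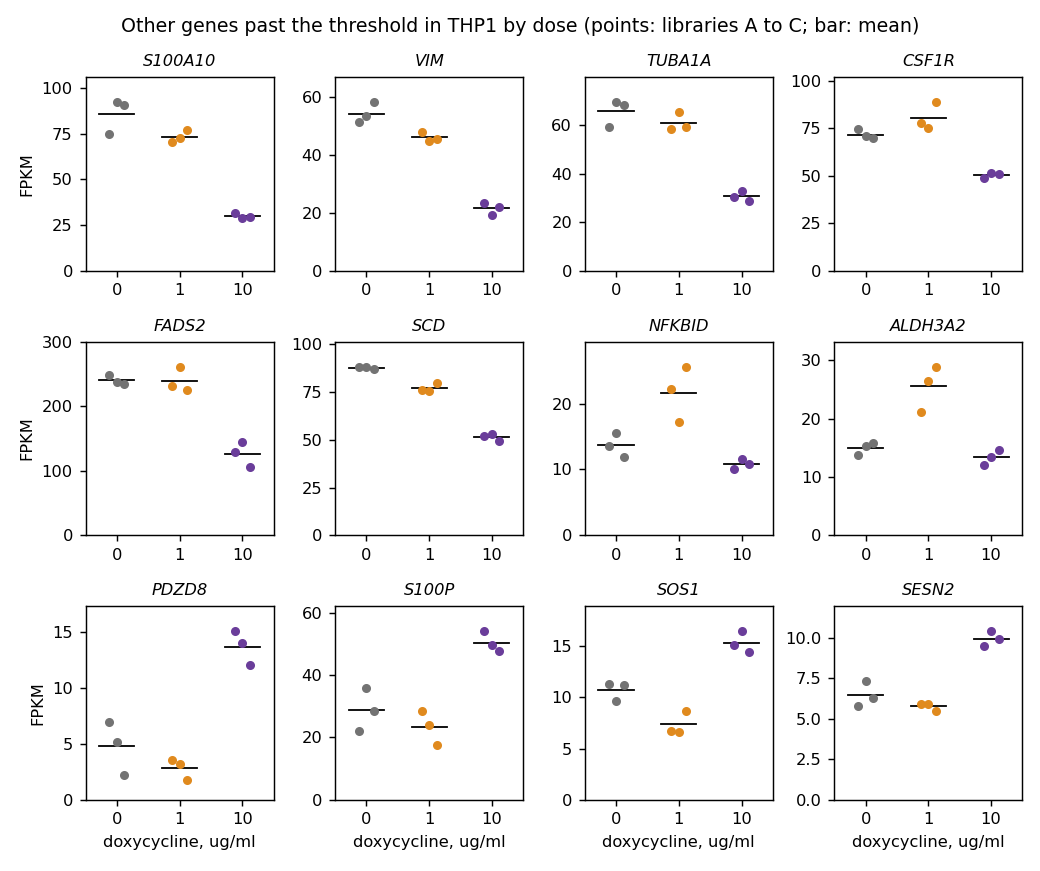
FPKM of 12 genes past the threshold outside cholesterol synthesis in the 9 parental THP1 libraries by dose, with points for plates A to C and a bar for the mean. The plates at 10 ug/ml are apart from those at 1 ug/ml in every panel, with S100A10 at 28.9 to 31.5 FPKM against 70.5 to 76.8 FPKM, while NFKBID and ALDH3A2 are highest at 1 ug/ml.

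Most monocyte and macrophage genes had small differences below 0. Of 39 tested of 43, 35 were below 0 (against 52.6% of all genes), with a median of -0.23, and 2 passed, both lower (against 0.245% of all genes). In the fit of the 9 THP1 libraries 1 passed, CSF1R (against 0.216%). CSF1R, the receptor for macrophage colony-stimulating factor, had 48.7, 51.6 and 51.2 FPKM at 10 ug/ml and 77.9, 75.2 and 88.7 FPKM at 1 ug/ml, a fall of 0.66 (SE 0.10, limma adjusted p = 0.0184). Its adjusted p with any one library left out was 0.0406 to 0.0707. FCGR2B, the inhibitory Fc receptor, had 1.1, 1.92 and 1.33 FPKM at 10 ug/ml and 3.32, 4.9 and 3.57 FPKM at 1 ug/ml, a fall of 1.01 (SE 0.18, adjusted p = 0.0356). For FCGR2B the left-out range was 0.0435 to 0.139. The list's summed level was 5555 to 6170 FPKM at 10 ug/ml and 6804 to 7132 FPKM at 1 ug/ml.

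Other myeloid genes, chosen after their values were seen, also passed lower. NFE2, a transcription factor of blood cells, had 28.6, 29.9 and 26.3 FPKM at 10 ug/ml and 43.7, 42.5 and 43.1 FPKM at 1 ug/ml, a fall of 0.60 (adjusted p = 0.00945, and 0.057 without replicate C at 10 ug/ml). RNASE2, a granule ribonuclease, had 725, 667 and 689 FPKM at 10 ug/ml and 913, 914 and 859 FPKM at 1 ug/ml, a fall of 0.37 (adjusted p = 0.0356). CFP, the complement factor properdin, had 35.5, 32.6 and 32.8 FPKM at 10 ug/ml and 52.6, 58.3 and 58.1 FPKM at 1 ug/ml, a fall of 0.73 (adjusted p = 0.0426). RNASE2 and CFP lost their calls without any one of the 6 libraries, at limma adjusted p of 0.0627 to 0.135 and 0.0982 to 0.154. CD68, a lysosomal marker of macrophages, had 221, 237 and 222 FPKM at 10 ug/ml and 295, 279 and 284 FPKM at 1 ug/ml, and did not pass (-0.34, adjusted p = 0.0841).

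The lower genes not described elsewhere were CD53, PPARD, GLIPR1, LNCATV, CSPG4, HLX, CPVL, MYO1G, LILRB4 and NRP2, which fell by between 0.33 (LILRB4) and 1.39 (NRP2). CD53, a tetraspanin of white blood cells, had 33.6, 36.7 and 31.3 FPKM at 10 ug/ml and 58.7, 60.5 and 56.8 FPKM at 1 ug/ml, a fall of 0.78 (adjusted p = 0.049). LILRB4, an inhibitory receptor of monocytic cells, had 97.3, 95.5 and 94.4 FPKM at 10 ug/ml and 118, 129.6 and 115 FPKM at 1 ug/ml, a fall of 0.33 (adjusted p = 0.0422). HLX, a homeobox transcription factor of blood cells, had 62.6, 55.0 and 58.0 FPKM at 10 ug/ml and 75.8, 87.5 and 76.6 FPKM at 1 ug/ml, a fall of 0.44 (adjusted p = 0.0337). The plates of the 2 doses were apart in all 3 genes. With 1 library left out, the limma adjusted p was 0.1 to 0.156 for CD53 and 0.0627 to 0.156 for LILRB4. For HLX the left-out range was 0.0454 to 0.135.

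Of 13 tested myeloblast and granulocyte genes, 0 passed, with a median of -0.14. AZU1 and CTSG, which encode granule proteins of neutrophils, lay on opposite sides of 0 without passing. AZU1 had 5287, 4999 and 4892 FPKM at 10 ug/ml and 5838, 5999 and 5678 FPKM at 1 ug/ml. CTSG had 4839, 5268 and 4442 FPKM at 10 ug/ml and 4029.8, 4239.5 and 3925 FPKM at 1 ug/ml. Markers of other cell types were scarce, and 0 of them passed. T and NK cell markers summed to 66.7 to 68.4 FPKM at 10 ug/ml and 73.7 to 77.5 FPKM at 1 ug/ml, nearly all of it NKG7, with 4 of 14 at 0 in all 6 libraries. B cell markers summed to 4.78 to 7.09 FPKM at 10 ug/ml and 5.91 to 22.3 FPKM at 1 ug/ml, with 4 of 10 at 0. Erythroid and megakaryocyte markers summed to 14.1 to 19.1 FPKM at 10 ug/ml and 11.9 to 21.4 FPKM at 1 ug/ml, with 8 of 14 at 0. Markers of a list of epithelial, fibroblast and endothelial genes summed to 128 to 161 FPKM at 10 ug/ml and 174 to 182 FPKM at 1 ug/ml, with 4 of 14 at 0, and most of that was PECAM1, which monocytes also express. The part of these markers in the results was not tested.

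Of 31 gene lists, 24 had no member past the threshold. The mitochondrially encoded genes, whose products are made by the mitochondrial ribosome, had 0 of 15 past the threshold and a median of 0.01. MT-CO2, a subunit of cytochrome c oxidase, had 5085, 4786 and 5076 FPKM at 10 ug/ml and 4956, 4835 and 4832 FPKM at 1 ug/ml, with overlapping plates. Of 41 nuclear genes of oxidative phosphorylation 0 passed, with a median of -0.01 and a range of -0.21 to 0.17. Mitochondrial ribosome and translation genes (0 of 30, median 0.01), mitochondrial chaperones and proteases (0 of 16, median 0.06) and nuclear genes that maintain and transcribe the mitochondrial genome (0 of 16, median 0.11) were likewise without a call. HSPD1, the mitochondrial chaperonin, had 656, 715 and 574 FPKM at 10 ug/ml and 567, 621 and 583 FPKM at 1 ug/ml. LONP1, a mitochondrial protease, had 157, 144 and 180.0 FPKM at 10 ug/ml and 124, 126 and 113 FPKM at 1 ug/ml, a difference of 0.40 (SE 0.11, limma adjusted p = 0.199).

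The lists of interferon response (0 of 38, median 0.05), inflammation and NF-kB (0 of 26, median -0.11), cell cycle (0 of 40, median -0.11), MYC targets and ribosome biogenesis (0 of 30, median 0.07), cytoplasmic ribosomal proteins (0 of 30, median 0.01) and the unfolded protein response (0 of 28, median -0.09) also held no call. The same was true of NRF2 targets (0 of 20), metallothioneins with iron and zinc genes (0 of 17), HLA class II presentation (0 of 13), MAPK output (0 of 20), PI3K and FOXO targets (0 of 21), lysosome and autophagy (0 of 28), matrix metalloproteinases (0 of 13) and histones (0 of 10), whose medians lay between -0.19 and 0.06. MYC had 161, 154 and 147 FPKM at 10 ug/ml and 138, 138 and 127 FPKM at 1 ug/ml, a difference of 0.20 (adjusted p = 0.219). TXNIP, an inhibitor of glucose uptake, had 255, 261 and 242 FPKM at 10 ug/ml and 334, 357 and 313 FPKM at 1 ug/ml, a difference of -0.40 (adjusted p = 0.0916). A p that misses the threshold does not show that these genes were alike at the 2 doses: on simulated data of this size the test found 29.9% of the genes given a log2 change of 0.5 and 79.1% of those given 1. The genes given a change were all above a minimum mean level, so these shares do not describe genes with low FPKM.

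**Figure D4:**
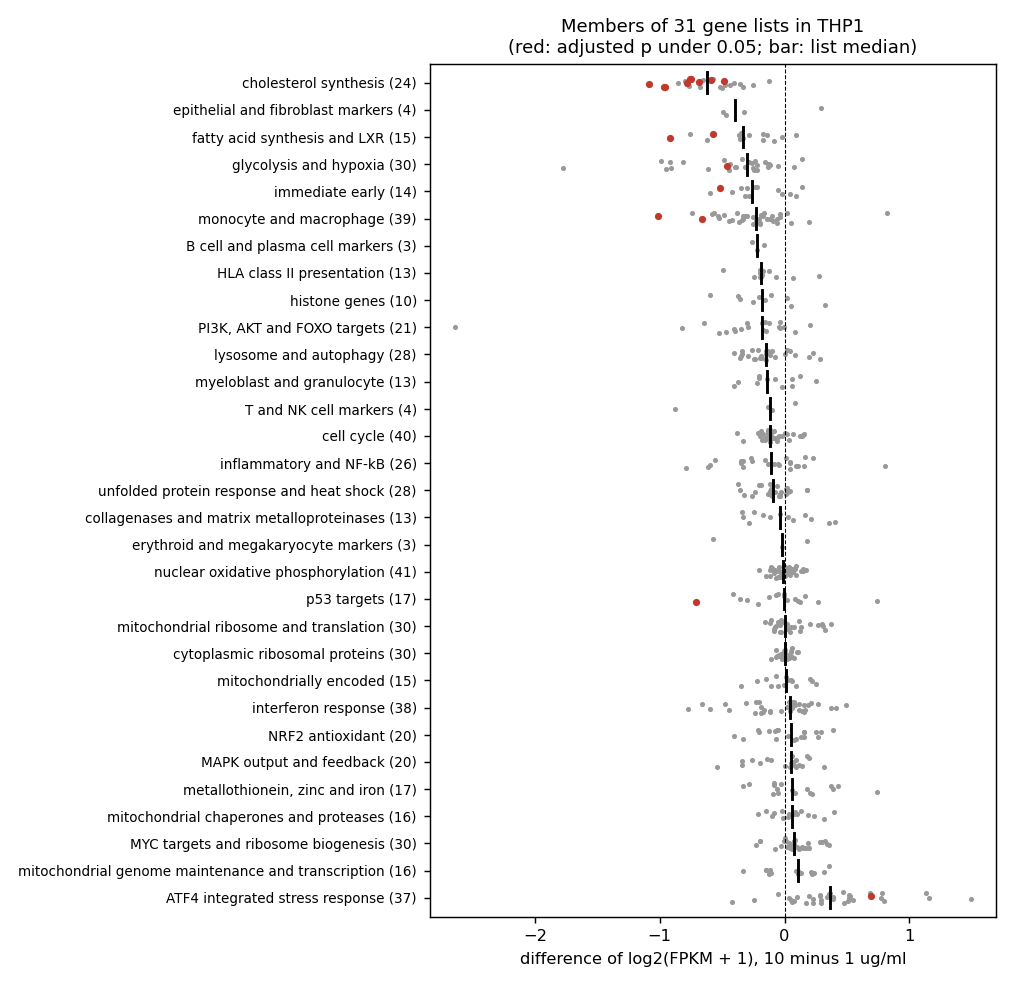
Difference of log2(FPKM + 1), 10 minus 1 ug/ml, of the tested members of 31 gene lists in parental THP1, with a bar at each list's median, members past the threshold in red and the number tested in brackets. Cholesterol synthesis lies lowest with a median of -0.62 and the ATF4 list highest with 0.37, while the mitochondrial lists centre near 0.

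Set beside the untreated plates, most of the 52 genes were apart at 10 ug/ml from both other doses. Of the 43 lower genes, 41 had every plate at 10 ug/ml below every plate at 1 and at 0 ug/ml, and the 9 higher genes had every plate at 10 ug/ml above every plate at both. The genes were called from the same plates at 10 and 1 ug/ml, so these counts are partly set by that choice. They are no separate support, and the share over all genes was not counted. The comparisons with 0 ug/ml share their libraries with the one described here, so their values are given side by side. At 1 against 0 ug/ml, 2 genes passed (0.0114%), 1 in each direction (0.0057% each, and 958 genes at an unadjusted p under 0.05), and at 10 against 0 ug/ml, 179 passed (1.02%), 17 higher and 162 lower.

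Summed levels of the cholesterol list were 3281 to 3308 FPKM at 0, 2971 to 3149 FPKM at 1 and 1847 to 2098 FPKM at 10 ug/ml, and its median difference was -0.14 at 1 against 0 ug/ml and -0.73 at 10 against 0 ug/ml. Summed levels of the ATF4 list were 2637 to 2810 FPKM at 0, 2672 to 2786 FPKM at 1 and 3499 to 3761 FPKM at 10 ug/ml. For S100A10 the plates had 74.6, 92.1 and 91.0 FPKM at 0 ug/ml, overlapping those at 1 ug/ml and above all at 10 ug/ml. For PSAT1 they had 60.9, 57.2 and 62.6 FPKM at 0 ug/ml, overlapping those at 1 ug/ml and below all at 10 ug/ml.

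In some of the 52 genes the plates at 1 ug/ml also stood apart from both other doses: every plate at 1 ug/ml was above every plate at 0 and 10 ug/ml in 6 genes, and below them in 3. The calls used these plates too, so these counts are also partly set by the choice of genes. The share over all genes was not counted for them either. NFKBID, an inhibitor of NF-kB, had 13.6, 15.5 and 11.9 FPKM at 0, 22.2, 17.2 and 25.6 FPKM at 1, and 10.1, 11.6 and 10.9 FPKM at 10 ug/ml. The fall between 1 and 10 ug/ml was 0.92 (SE 0.17, limma adjusted p = 0.0426), and the difference between 1 and 0 ug/ml, 0.62, did not pass (adjusted p = 0.515). ALDH3A2, a fatty aldehyde dehydrogenase, had 13.7, 15.3 and 15.9 FPKM at 0, 21.2, 26.5 and 28.9 FPKM at 1, and 12.01, 13.4 and 14.7 FPKM at 10 ug/ml. It fell by 0.88 between 1 and 10 ug/ml (SE 0.15, adjusted p = 0.0337), and its difference of 0.73 between 1 and 0 ug/ml did not pass (adjusted p = 0.2). Between 1 and 10 ug/ml the left-out range of the adjusted p was 0.0406 to 0.138 for NFKBID and 0.0305 to 0.13 for ALDH3A2.

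TNF, chosen after its values were seen, did not pass between the treated doses. At 1 against 0 ug/ml, 0 of the 26 tested genes of the inflammation and NF-kB list passed. Of these, 25 were below 0 (against 47.6% of all genes), with a median of -0.52. At 10 against 0 ug/ml, 9 of them passed, all lower (against 0.923% of all genes). TNF had 16.3, 17.1 and 17.04 FPKM at 0, 6.93, 6.04 and 6.03 FPKM at 1, and 6.55, 7.02 and 6.89 FPKM at 10 ug/ml, with a difference between 10 and 1 ug/ml of 0.09 (adjusted p = 0.942).

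The step between 1 and 10 ug/ml was also set against the same step in B11, where the dose changes an inducible NRAS as well. In THP1, 52 genes passed (0.296%), and in B11 2249 did (12.8%), 999 higher (5.69%) and 1250 lower (7.12%). A test of the THP1 step minus the B11 step was past the threshold for 814 genes (4.64%), 419 with the larger value in THP1 (2.39%) and 395 with the larger value in B11 (2.25%).

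For cholesterol synthesis, the 24 genes all had a THP1 step below the B11 step, 19 of them past the threshold of that test, and the median of THP1 minus B11 was -1.01. The THP1 median of -0.62 stood against a B11 median of 0.34, where 10 members passed, all higher. HMGCS1 differed by -0.97 in THP1 and 0.34 in B11 (THP1 minus B11 -1.30, SE 0.22, limma adjusted p = 0.00335). MVK differed by -1.09 in THP1 and 0.24 in B11 (THP1 minus B11 adjusted p = 0.0121), and IDI1 by -0.76 in THP1 and 0.75 in B11 (adjusted p = 0.000876).

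For the ATF4 list, 36 of the 37 genes had a THP1 step above the B11 step, 14 of them past the threshold of that test, and the list's median was 0.37 in THP1 and -0.56 in B11, where 15 members passed lower. SESN2 rose by 0.69 in THP1 and fell by 1.32 in B11 (THP1 minus B11 2.02, SE 0.18, adjusted p = 2.45e-05). TRIB3 differed by 0.55 in THP1, where it did not pass, and THP1 minus B11 was 1.95 (adjusted p = 0.000115). The interferon response list had a median of 0.05 in THP1 and -1.39 in B11, where 34 of 38 members passed lower, and 24 members passed in the test of THP1 minus B11.

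Among genes outside those lists, S100A10 differed by -1.27 in THP1 and -0.18 in B11 (THP1 minus B11 adjusted p = 0.0015), and VIM by -1.07 in THP1 and 0.06 in B11 (adjusted p = 0.00323). Genes chosen by their THP1 step can lean away from 0 in this comparison, as that step is part of it. TUBA1A was lower in both lines, by -0.97 in THP1 and -0.70 in B11, and the difference between the lines, -0.27, did not pass (adjusted p = 0.472). CSF1R was lower in both, by -0.66 in THP1 and -1.56 in B11, and the smaller fall in THP1 passed (THP1 minus B11 0.90, adjusted p = 0.00248). B11 differs from parental THP1 in its clonal origin and its added constructs as well as in the inducible NRAS, and these cannot be told apart.

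**Figure D5:**
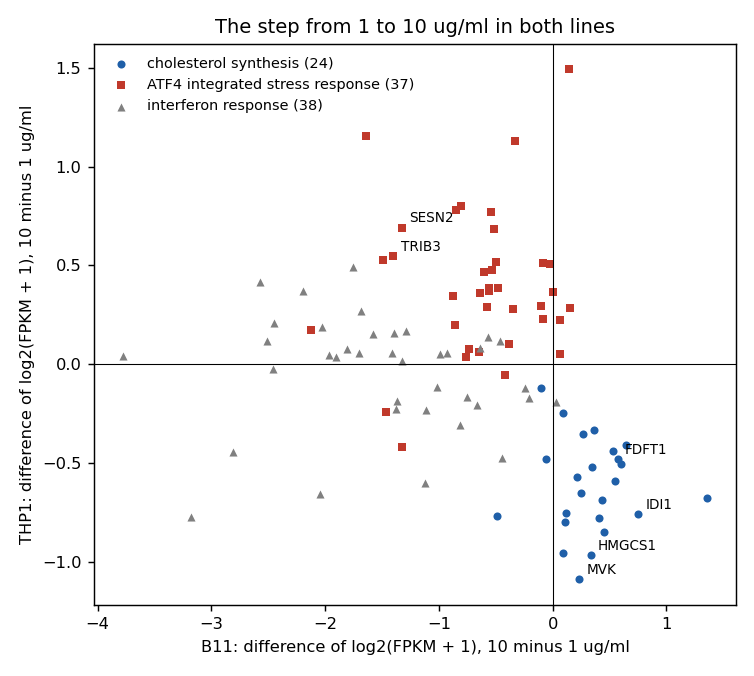
Difference of log2(FPKM + 1), 10 minus 1 ug/ml, in parental THP1 (vertical) against B11 (horizontal), 1 point per gene of 3 lists. Cholesterol genes (blue) lie at a median of -0.62 in THP1 and 0.34 in B11, ATF4 list genes (red) at 0.37 and -0.56, and interferon genes (grey) at 0.05 and -1.39.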

How the data were processed

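Total RNA of 18 plates was sequenced, and the 6 libraries of parental THP1 at 10 and 1 ug/ml doxycycline were compared. The deposited table holds 1 FPKM value per gene and library. HISAT2, Cuffnorm and the build GRCh38 are named in the submitters' processing notes, without versions; the annotation, strand setting and filters behind the table are unstated in the sources. FPKM is the unit that Cuffnorm writes, and the values, which the header leaves unlabelled, do not contradict it. Of 60658 gene IDs, 57047 were in GENCODE release 29 and had a name. Names came from a separate list of gene symbols, or from that release where the list gave none. Promoter sequences came from RefSeq, GRCh38.p14.

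FPKM holds no read counts, so depth is unknown. The smallest steps of the values gave an estimated 12.6 to 15.8 M fragments for the 6 libraries, which entered no test.

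A gene was kept if 3 or more of the 18 libraries gave it 1 FPKM or more. Means of the 6 groups were fitted to log2(FPKM + 1) with limma 3.58.1 (R 4.3.3), an intensity trend and 12 residual degrees of freedom over all 18 libraries, and p-values were adjusted by Benjamini-Hochberg over 17555 genes with a threshold of 0.05. Errors are the fit's SE, or SDs over plates where stated. Replicate letters were not used as pairs. Tested on simulated data with 200 of 17555 genes changed, the fit recovered 29.9, 79.1 and 97.0% of changes of 0.5, 1 and 2 on the log2 scale, and 9.27% of its calls were false. The 200 were drawn only from genes above a minimum mean level, so recovery among genes with low FPKM was not tried.

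The groups compared and the gene lists were chosen with earlier results of these data known. Genes named were the 12 higher and 12 lower with the largest change among those past the threshold, filled by the smallest p. They had plates that did not overlap and a mean of at least 5 FPKM in whichever dose had the larger mean. Up to 4 members of each list past the threshold, or the most abundant, were added. Other named genes, among them S100A4, ECM1, ARPC1B, NFE2, RNASE2, CFP, ALDOC, BNIP3, PSAT1, PHGDH and SLC7A5, were chosen after their values were seen. Alternatives were other pseudocounts (0.1 and 0.5), filters, scalings and library sets, a replicate block and each library left out. Some members of the cholesterol list are not reported here by name.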

Additional observations from a re-analysis of the deposited data

Results flagged for a closer look

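Each result here is a difference between the 10 minus 1 ug/ml step in THP1 and the same step in B11 that passed limma's test of that difference at an adjusted p under 0.05. Values are the THP1 step minus the B11 step on the log2(FPKM + 1) scale. The named genes had been chosen by their THP1 step, which is part of this difference. Their values can therefore lean away from 0 and are no separate support for the THP1 step.

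Among genes that rose in THP1, the difference was 1.90 for PDZD8, 1.90 for S100P, 2.02 for SESN2, 0.85 for MLST8 and 0.49 for RNF187. Among genes that fell in THP1, it was -1.82 for TBC1D30, -1.15 for LINC03040, -1.09 for S100A10, -1.32 for MVK, -1.13 for VIM, -1.30 for HMGCS1, -1.05 for MVD, -0.91 for NFKBID and -1.04 for ALDH3A2. S100P rose by 1.10 in THP1 and fell by 0.80 in B11 (adjusted p = 0.0123), and MLST8 rose by 0.42 in THP1 and fell by 0.43 in B11 (adjusted p = 0.00255).

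Of the cholesterol list, 19 of 24 members passed this test, all with the lower step in THP1, and of the ATF4 list 14 of 37 passed, all with the higher step in THP1. Over all genes 4.64% passed. Part of the levels before the step also differed between the lines: at 1 ug/ml SESN2 averaged 5.78 ± 0.24 FPKM in THP1 and 36.6 ± 1.00 FPKM in B11, and HMGCS1 76.9 ± 6.46 FPKM in THP1 and 37.1 ± 4.03 FPKM in B11 (SD, n = 3 each). The part of these starting levels in the differences was not tested.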

How the results depend on the processing

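All called genes kept their direction in every alternative, and S100A10, VIM, TUBA1A and FDPS (4 genes) kept their call in all of them. The 52 genes past the threshold became 31 with a pseudocount of 0.1, 32 with 0.5, 34 without the filter on low values, 28 without the intensity trend, 11 with the 6 libraries alone (4 higher and 7 lower) and 18 with a replicate block (0 higher); with the 9 THP1 libraries alone 51 genes passed, 27 of them shared. They were 46 with median of ratios scaling and 52 with TPM, with 8 and 10 of these higher. A fit of the protein-coding genes alone (300 exonic bases or more), added after seeing the data, gave 76. Leaving out 1 library gave 13 to 21. The cause of these changes was not tested.

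Cholesterol genes past the threshold, 9, were 4 without the filter, 4 without the trend, 2 with the 6 libraries alone and 5 with the replicate block, and 2 to 4 with a library left out. The list's median stayed between -0.68 and -0.60. ATF4 list genes past the threshold, 1, were 0 without the filter, without the trend and with the replicate block, 6 with the 9 THP1 libraries and 2 with protein-coding genes, and 0 to 1 with a library left out, with medians of 0.31 to 0.39. For 10 against 0 ug/ml, 179 became 119 with the 9 THP1 libraries and 94 to 153 with a library left out. For 1 against 0 ug/ml, 2 genes became 0 with a pseudocount of 0.5 and with the block, 23 without the filter, 1 with a mean of at least 5 FPKM, median of ratios, TPM or the 9 THP1 libraries, 7 without the trend, 10 with protein-coding genes and 0 to 6 with a library left out. The 814 genes of THP1 minus B11 stayed between 578 and 844.

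The replicate letters do not pair the plates: deviations of same-lettered plates at 10 and 1 ug/ml correlated at -0.03, 0.00073 and 0.03. Medians of 4 of the 5 mitochondrial lists changed sign among the alternatives, so no direction is given for them. Read depth is unknown, and with 3 plates per dose many changes of 0.5 on the log2 scale would be missed.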
